A study of Macaca fascicularis with 20 samples.

Results

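CD11b single-positive natural killer (NK) cells were compared with double-low NK cells of the cynomolgus macaque spleen (Macaca fascicularis), which is the step to CD11b among cells low for CD27. Arrays were taken by their titles: 5 arrays of NKG2A+ CD8a+ CD27lo CD11b+ cells and 4 arrays of NKG2A+ CD8a+ CD27lo CD11blo cells, 9 of the 20 arrays in the series. The study sorted NK cells by surface CD27 and CD11b and profiled each subset unstimulated on one-colour arrays, with CD27 single positives (CD27+ CD11blo, 4 arrays), double positives (CD27+ CD11b+, 5 arrays) and B cells (2 arrays) beside these groups. All 9 arrays held RNA of untreated cells that had been frozen, thawed, stained and sorted from a live CD45+ gate without CD3, CD14, CD20 or HLA-DR. From each, 50 ng of total RNA was amplified by an isothermal linear method before 400 ng of product was labelled with Cy3. The labels give no genotype or agent and describe 4 to 5 biological replicates per subset, without naming the animals.

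The 4 double-low arrays came from a Cambodian male of 4 years (replicate 1), a Vietnamese male of unstated age (replicate 2), a Vietnamese male of 9 years (replicate 3) and a Singaporean female of 18 years (replicate 4). The 5 CD11b single-positive arrays came from a Cambodian male of 4 years (replicate 1), a Vietnamese male of unstated age (replicate 2), a Vietnamese male of 11 years (replicate 3), a Singaporean male of 5 years (replicate 4) and a Singaporean female of 18 years (replicate 5). Origins and sexes of CD27 single positives and double positives followed, replicate by replicate, those of double-low cells and CD11b single positives. Their ages were 4, unstated, 10 and 18 years, and 4, unstated, 12, 5 and 18 years. Among NK arrays a male of 5 years was labelled only in the CD11b+ subsets. The labelled ages of replicate 3 run 9, 10, 11 and 12 years over the 4 NK subsets, which may be an entry error. The ages therefore do not show that these arrays came from different animals. Replicates 1 and 2 of both subsets stood on slide 1. Replicate 3 of both and double-low replicate 4 stood on slide 2, and CD11b single-positive replicates 4 and 5 stood alone on slide 3.

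CD27 is a co-stimulatory relative of the tumour necrosis factor receptors, and CD11b is the alpha subunit of an integrin that binds complement fragments and adhesion ligands. In mice, the surface levels of both order NK cells by maturity, from double-low through CD27+ and double-positive cells to CD11b+ CD27lo cells, and the last of these are known for killing. NK cells kill by releasing granules that carry perforin, which makes pores in the target membrane, and granzymes, the proteases that enter through them.

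Levels are given as log2 of the processed signal after each array was set to its 75th percentile, so a level of 0 is the signal at that percentile, and levels of different genes are not comparable because each has its own probe. A difference is the mean of the CD11b single positives minus the mean of the double-low cells, with the limma standard error (SE). In sorted bulk RNA, a smaller share of cells with a transcript and less transcript in each cell cannot be told apart. The 75th percentile of signal ran from 199.6 (replicate 4) to 1396 (replicate 3) on double-low arrays and from 578.2 to 1308 on CD11b single-positive arrays. Between 81.0% (double-low replicate 4) and 96.0% of probes were well above background, and no spot was saturated.

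Of 5 genes listed as sort markers, only CD27 had a probe that could be matched to a gene. CD3D, of the CD3 complex that the gate left out, was matched too and is given below with other cell types. The level of CD27 was 2.73, 2.31, 3.15 and 4.88 on double-low arrays 1 to 4. On CD11b single-positive arrays 1 to 5 it was 3.16, 2.55, 3.20, 3.83 and 3.12. The groups overlapped, with a difference of -0.10 ± 0.43 (SE, n = 5 and 4; limma adjusted p = 0.984). Double-low replicate 4 carried the highest CD27 level of the 9 arrays, above the mean of 4.32 in CD27 single positives, and it was also the dimmest of the 9. Values without it are therefore given beside the main results. The transcript of CD11b itself was not analysed here, so the arrays carry no check of that part of the sort.

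Perforin was the transcript that set the subsets apart most clearly. PRF1 stood at 1.26, 0.44, 1.29 and 0.90 on the double-low arrays and at 2.51, 2.88, 4.03, 4.15 and 4.11 on the CD11b single-positive arrays. Every CD11b single-positive array lay above every double-low array. The difference was 2.56 ± 0.44 (95% confidence interval 1.65 to 3.48), the lowest p of all 12192 genes tested, yet its limma p after Benjamini-Hochberg adjustment, 0.153, missed the threshold of 0.05. A second PRF1 probe gave 2.31 ± 0.46 and likewise separated the groups. Without double-low replicate 4 the difference was 2.54. Within slide 1 it was 1.85 and within slide 2 it was 2.93. Over 15 alternatives the limma adjusted p of PRF1 ran from 0.0101 with array weights, where PRF1 alone passed, to 0.9997 within slide 2.

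No gene passed the threshold in this comparison by limma, and 438 genes (3.59%) had an unadjusted p under 0.05, of which 231 (1.89%) were higher and 207 (1.7%) lower in CD11b single positives. Testing every expressed probe, named or not, gave the same count of 0 of 56918, with 2091 (3.67%) at an unadjusted p under 0.05. The median SE of a gene was 0.60. Apart from PRF1, all named genes have an adjusted p of 0.945 or more, so their differences are values and not calls. All CD11b single-positive arrays lay above all double-low arrays for 86 genes (0.705%) and below them for 136 (1.12%). The median difference of all genes was -0.20 (quartiles -0.53 and 0.23), with 36.2% above 0. Quantile normalization moved that median to -0.08, and so did the slide as a block. It was 0.02 within slide 1 and -0.04 within slide 2. The values of all genes set beside lists below are from the main fit unless a slide is named. Leaving out double-low replicate 4 lowered the count at an unadjusted p under 0.05 to 257, leaving out CD11b single-positive replicate 4 lowered it to 243, and leaving out CD11b single-positive replicate 1 raised it to 705.

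The 10 genes of lowest p among those higher in CD11b single positives were PRF1, GRK5, PLEKHG3, GTF2E1, STK38, PDGFRB, PAFAH1B1, GZMH, SELPLG and ABHD1, with differences between 2.06 and 4.92. For 8 of them the groups did not overlap, beside 0.705% of all genes with every single-positive array above. These genes were picked by p on the same arrays, so little overlap follows from the choice. On all 9 arrays 8 of the 10 had probes well above background. So had 3948, 3572 and 1910 of the 4064 genes each of highest, middle and lowest mean level. In the other direction the 10 genes of lowest p were NPPC, SLC36A3, PLEKHA6, EPS8, HOOK1, SLC25A43, MGLL, DMRT2, RBL1 and CYP2C18, with differences between -2.44 and -1.16. Only 2 of these, HOOK1 and RBL1, were well above background on all 9 arrays. Of the 10 lower genes 6 did not overlap, beside 1.12% of all genes with every single-positive array below. They too were picked by p.

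**Figure D1:**
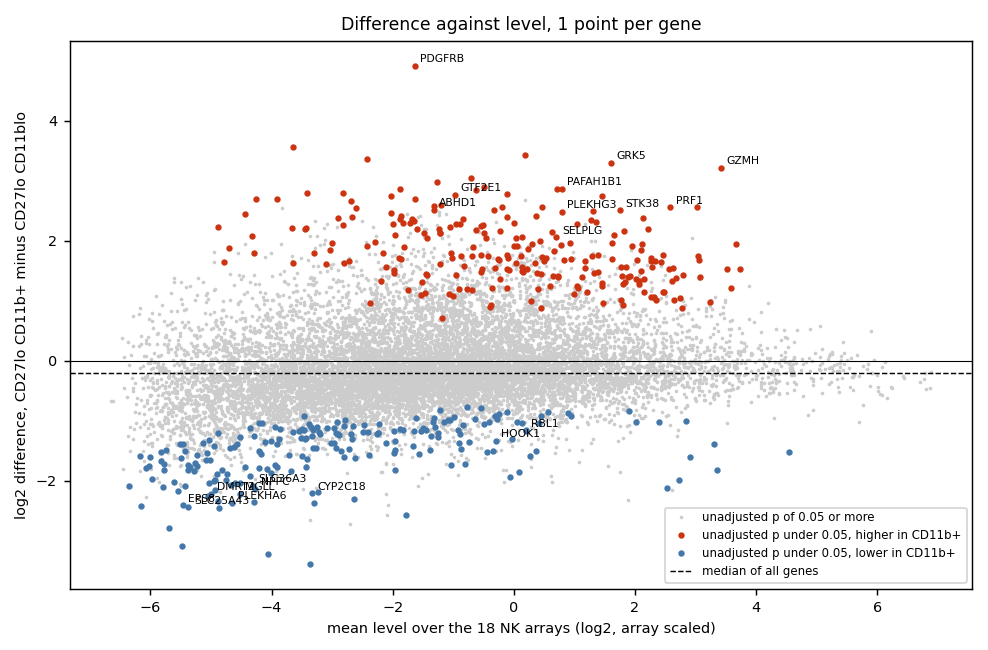
Log2 difference of each of 12192 genes (vertical axis, CD27lo CD11b+ minus CD27lo CD11blo) against its mean level over the 18 NK arrays (horizontal axis, log2), with the 231 and 207 genes of unadjusted p under 0.05 in red and blue and the 20 genes of lowest p named. Higher genes gather at high levels and lower genes at low levels, PRF1 and GZMH lying far to the right.

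The direction of a difference went with how bright the gene was. Among the 4064 genes of highest mean level, 136 were higher and 33 lower at an unadjusted p under 0.05, and their median difference was -0.08. Among the 4064 dimmest genes, 26 were higher and 129 lower, with a median of -0.39. The part that signal strength plays in the lower genes was not tested. Shares and medians of all genes set beside a list include these dim genes, whatever the level of its members.

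Granule genes stood mostly higher in CD11b single positives. Of 16 genes listed for cytotoxic granules 14 were tested, and 13 of these had a difference above 0, against 36.2% of all genes, with a median of 1.16 beside -0.20 for all genes. Of these 14, 5 had an unadjusted p under 0.05 in the higher direction, where 1.89% of all genes did. None was lower at that p, and none passed the adjusted threshold in limma. On all 9 arrays 12 of the 14 were well above background. Of the 4064 genes of highest mean level 136 were higher at that p, and their median was -0.08. As the mean of the members, each centred on the NK arrays, the list stood at -1.24, -1.13, -0.54 and -0.92 on the double-low arrays. On CD11b single-positive arrays it stood at -0.60, -0.08, 0.98, 0.72 and 0.49, so that only replicate 1 fell within the double-low range. The median without double-low replicate 4 was 1.28, with 4 members at an unadjusted p under 0.05. Within slide 1 it was 0.85 and within slide 2 it was 1.72, beside 0.02 and -0.04 for all genes. These slides have 2 and 1 CD11b single-positive arrays.

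GZMH, a chymotrypsin-like granzyme, had the larger difference but also the larger spread. Its level was 0.04, 0.70, 3.33 and -0.02 on double-low arrays and 1.47, 4.12, 5.43, 5.15 and 4.99 on CD11b single-positive arrays. Double-low replicate 3 was high and CD11b single-positive replicate 1 was low, and through these 2 arrays the groups overlapped. The difference was 3.22 ± 0.81 (limma adjusted p = 0.945), 2.43 within slide 1 and 3.77 within slide 2. The other granzymes differed less than their errors could separate: GZMA by 2.05 ± 1.30, GZMB by 0.50 ± 0.42 and GZMK by 0.40 ± 0.67.

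NKG7, a granule membrane protein, stood at -1.69, -0.29, 0.24 and -0.74 in double-low cells and at -1.55, 1.29, 2.33, 1.59 and 1.66 in CD11b single positives, with only replicate 1 of the latter inside the double-low range (difference 1.68 ± 0.67). Of the inhibitors that protect a killer cell from its own proteases, SERPINB9, which blocks granzyme B, differed by 1.94 ± 0.90. SERPINB1 was not well above background on any double-low array and was well above it on 4 of 5 CD11b single-positive arrays. Set against the background level, its mean was at least 1.39-fold higher in the single positives (fitted difference 1.64 ± 0.71, limma adjusted p = 0.945). Granulysin (GNLY), which attacks microbial and target membranes, differed by 1.01 ± 0.68, cystatin F (CST7), an inhibitor of granzyme-activating cathepsins, by 1.07 ± 0.63, and serglycin (SRGN), the proteoglycan that packs the granule, by -0.39 ± 0.44. The machinery that moves and fuses granules stood lower in rank: 7 of 10 tested genes had a difference above 0, against 36.2% of all genes, none had an unadjusted p under 0.05, and the median of 0.46 was 0.02 without double-low replicate 4. In that list RAB27A, which docks granules, differed by 0.50 ± 0.91 and SYTL3, its effector, by 1.35 ± 0.87.

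**Figure D2:**
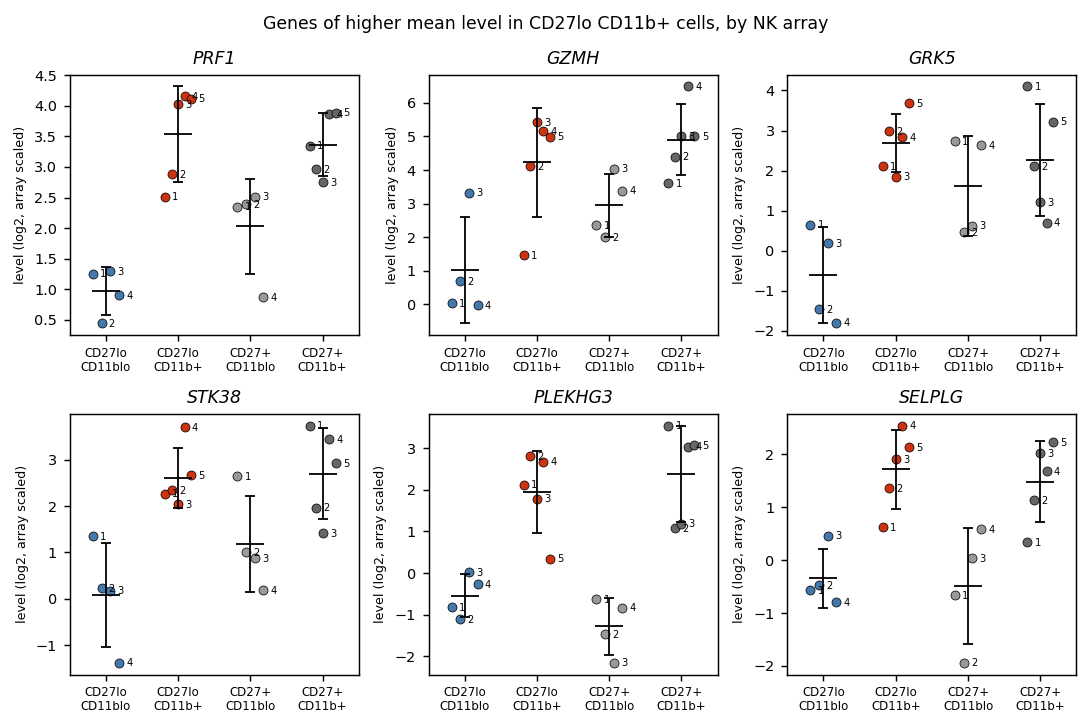
Levels of 6 genes (log2, array scaled) on each array of the 4 NK subsets, numbered by replicate, with the mean and 1 SD as bars (n = 4 for the CD11blo subsets and 5 for the CD11b+ subsets). In all panels but GZMH the 5 red points of CD27lo CD11b+ cells lie above the 4 blue points of CD27lo CD11blo cells.

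GRK5 and STK38, a pair of kinases, were also among the 5 higher genes of lowest p. GRK5 phosphorylates activated G protein-coupled receptors, which ends their signalling. It stood at 0.65, -1.47, 0.18 and -1.80 on double-low arrays and at 2.11, 2.98, 1.85, 2.83 and 3.68 on CD11b single-positive arrays. The groups did not overlap, and the difference was 3.30 ± 0.72 (95% confidence interval 1.78 to 4.81; limma adjusted p = 0.945). All 3 GRK5 probes pointed the same way, from 1.59 to 3.30. Without double-low replicate 4 the difference was 2.90, within slide 1 it was 2.95 and within slide 2 it was 2.66.

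STK38 encodes NDR1, a kinase of the family that acts beside the Hippo pathway in cell shape, division and immune signalling. It stood at 1.35, 0.22, 0.17 and -1.38 in double-low cells and at 2.27, 2.35, 2.04, 3.69 and 2.66 in CD11b single positives. The lowest single-positive array was again above the highest double-low array, and the difference was 2.51 ± 0.60 (limma adjusted p = 0.945). It was 2.02 without double-low replicate 4, the array on which STK38 was lowest, and 1.52 within slide 1.

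The relatives of these kinases were mixed. Among 15 tested genes of G protein-coupled receptor kinases, arrestins, G proteins and regulators of G protein signalling (RGS), 8 had a difference above 0, against 36.2% of all genes, and the median was 0.19. In this list 2 genes were higher at an unadjusted p under 0.05 (GRK5 and GNA13, a G protein subunit, 1.36 ± 0.60) and 4 were lower, against 1.89% and 1.7% of all genes. The other receptor kinase measured, GRK6, differed by 1.04 ± 0.85, and the arrestin ARRB1 by -0.08 ± 1.21. Among 15 tested genes of the Hippo and NDR kinases, STK38 alone had an unadjusted p under 0.05, where 3.59% of all genes did. STK38 had itself been picked by its p. The kinase most like it, STK38L, differed by -0.06 ± 0.67, LATS1 by -0.78 ± 0.80, and the co-activators MOB1A and MOB1B by -0.11 ± 0.66 and 1.15 ± 0.98.

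Of the 15 genes of the receptor kinase, arrestin, G protein and RGS list, 7 had a difference below 0. The 4 lower at an unadjusted p under 0.05 were RGS1, RGS2, GNAI3 and RGS14. RGS1, which shortens chemokine receptor signalling, stood at 5.10, 4.29, 5.23 and 6.42 in double-low cells and at 3.56, 3.35, 3.78, 4.77 and 3.24 in CD11b single positives. A single array of the latter, replicate 4, reached into the double-low range, and the difference was -1.52 ± 0.59 (limma adjusted p = 0.945). RGS2 differed by -1.81 ± 0.70, with CD11b single-positive replicates 2 and 4, both at 3.44, inside the double-low range of 3.30 to 4.37. For GNAI3, an inhibitory G protein subunit (-1.13 ± 0.42), and RGS14, an RGS protein (-1.02 ± 0.45), all CD11b single-positive arrays lay below all double-low arrays. Without double-low replicate 4, 2 genes of the list, counting both directions, had an unadjusted p under 0.05.

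RGS1 and RGS2 are also used as marks of tissue-resident lymphocytes. Of 13 tested genes of tissue residency 4 had a difference above 0, a share near the 36.2% of all genes, and RGS1 and RGS2 were the 2 lower at an unadjusted p under 0.05 (1.7% of all genes were). The median of -0.61, beside -0.20 for all genes, was the lowest of the lists with more than 1 tested member; without double-low replicate 4 it was -0.57, with no member at an unadjusted p under 0.05. CRTAM, an adhesion receptor of activated lymphocytes, stood at 1.96, 1.34, 0.63 and 3.44 on double-low arrays and at -0.01, 0.77, 0.61, 0.39 and 1.01 on the others (-1.29 ± 0.66). ITGA1, the collagen-binding integrin CD49a, differed by -1.03 ± 0.59, the chemokine receptor CXCR6 by -0.74 ± 0.51 and the retention marker CD69 by -0.54 ± 0.58. These 4 genes overlapped between the groups. PRDM1, a transcription factor of the same list, ran the other way at 1.57 ± 0.99.

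**Figure D3:**
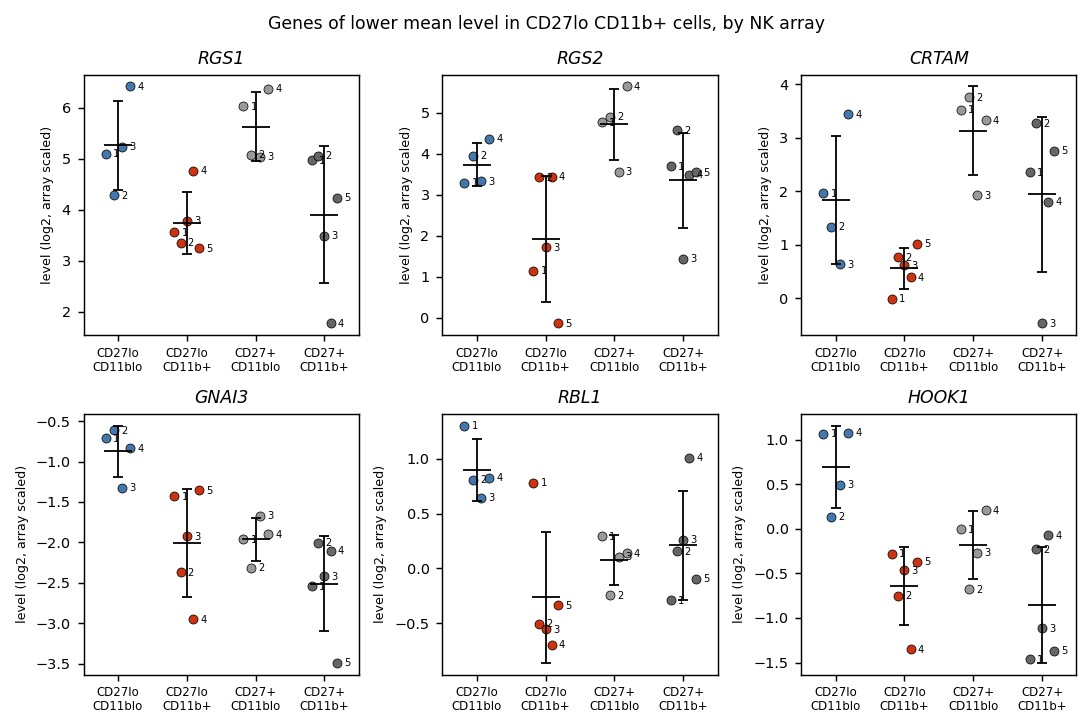
Levels of 6 genes (log2, array scaled) on each array of the 4 NK subsets, numbered by replicate, with the mean and 1 SD as bars (n = 4 for the CD11blo subsets and 5 for the CD11b+ subsets). The groups of CD27lo cells do not overlap for GNAI3 and HOOK1, and overlap through 1 or more arrays for RGS1, RGS2, CRTAM and RBL1.

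HOOK1, an adaptor that links cargo to the microtubule motor dynein, was the bright gene with the cleanest lower level. It stood at 1.07, 0.14, 0.49 and 1.08 in double-low cells and at -0.28, -0.75, -0.46, -1.35 and -0.37 in CD11b single positives, with no overlap and a difference of -1.34 ± 0.40. RBL1, the retinoblastoma relative p107 that restrains the cell cycle, stood at 1.30, 0.81, 0.65 and 0.83 against 0.78, -0.51, -0.56, -0.70 and -0.34 (-1.16 ± 0.37). CD11b single-positive replicate 1 alone lay within the double-low range. Each of the other 8 lower genes had 1 or more of the 9 arrays not well above background. NPPC, a natriuretic peptide, stood between -3.39 and -2.20 in double-low cells and between -6.03 and -3.70 in CD11b single positives (-2.13 ± 0.57), with 3 of the 5 latter arrays well above background. MGLL, a lipase of monoacylglycerols, differed by -2.22 ± 0.69 and by -2.34 with its second probe, with 2 of 5 arrays well above background.

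PLEKHG3, an actin-binding protein, was among the higher genes. It stood at -0.83, -1.12, 0.02 and -0.26 in double-low cells and at 2.12, 2.80, 1.78, 2.67 and 0.34 in CD11b single positives. Replicate 5 of the latter was far below the other 4 but still above the double-low cells, and the difference was 2.49 ± 0.58.

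SELPLG encodes PSGL-1, the ligand that lets leukocytes roll on selectins. It stood at -0.57, -0.47, 0.46 and -0.80 in double-low cells and at 0.63, 1.36, 1.91, 2.54 and 2.14 in CD11b single positives, without overlap (2.06 ± 0.53, 1.91 without double-low replicate 4). It was the only one of 13 tested chemokine and homing receptors with an unadjusted p under 0.05, where 3.59% of all genes had one. The median of that list was -0.12. Of 18 tested integrins and adhesion genes 11 had a difference above 0, against 36.2% of all genes, and none had an unadjusted p under 0.05. ITGB2, the beta chain that pairs with CD11b, differed by 0.58 ± 0.44, and TLN1, which activates integrins from inside the cell, by 0.88 ± 0.46.

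Transcription factors of NK maturation divided. TBX21 (T-bet), which drives NK maturation, stood at 2.06, 2.29, 2.13 and 1.34 in double-low cells and at 3.04, 4.11, 3.13, 3.67 and 2.70 in CD11b single positives, without overlap (1.37 ± 0.55). RUNX3, a factor of cytotoxic lymphocytes, stood at 0.38, 0.02, 0.63 and 1.30 against 1.79, 2.52, 1.62, 2.37 and 2.43, also without overlap (1.56 ± 0.47). EOMES, the factor related to T-bet, differed by 0.57 ± 0.69, ZEB2 by 1.33 ± 1.11 and ID2 by 0.15 ± 0.52. TOX and ID3, both factors of early lymphocyte development, had differences below 0 (-1.44 ± 0.72 and -1.72 ± 0.83). Of 22 tested factors 14 had a difference above 0, against 36.2% of all genes, with a median of 0.16. TBX21 and RUNX3 were the 2 that were higher at an unadjusted p under 0.05, where 1.89% of all genes were, and none was lower.

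Of 17 tested NK identity genes 15 were well above background on all 9 arrays, beside 10 of 12 tested neutrophil genes. Of the 4064 genes each of highest, middle and lowest mean level, 3948, 3572 and 1910 were. Among the NK identity genes, NCAM1 (CD56) was well above background on 0 of 5 CD11b single-positive arrays and 1 of 4 double-low arrays. In this list 13 genes had a difference above 0 (median 0.54), against 36.2% of all genes, and 4 were higher at an unadjusted p under 0.05, where 1.89% of all genes were: NKG7, TBX21, CD7 (1.71 ± 0.74) and FCER1G, the signalling chain of several activating receptors (1.22 ± 0.55). Without double-low replicate 4 the median was 0.79 and 1 gene had an unadjusted p under 0.05. KLRD1, the partner chain of NKG2A, was at 1.37, 2.10, 2.32 and 3.59 against 1.69, 2.25, 2.99, 3.44 and 3.12, overlapping throughout (0.36 ± 0.52). Differences were 0.53 ± 0.42 for TYROBP and 0.31 ± 0.42 for NCR3, and the medians of the activating and the inhibitory receptors were -0.01 and -0.02. KIT, a receptor of immature NK cells, stood at -0.02, 1.36, 0.39 and -3.10 against -1.61, -1.64, -1.99, -2.51 and -7.58. Double-low replicates 1 to 3 lay above all CD11b single-positive arrays and replicate 4 lay among them, and the difference was -2.72 ± 1.40 (limma adjusted p = 0.945).

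Of 16 tested genes of mature effector NK cells 11 had a difference above 0 (median 0.61), against 36.2% of all genes. At an unadjusted p under 0.05, 4 were higher and 1 was lower, where 1.89% and 1.7% of all genes were; PRF1 and GZMH belong to this list too. S100A4, a calcium-binding protein of motile and memory lymphocytes, stood at 1.17, 1.62, 1.43 and 0.41 in double-low cells and at 1.93, 3.16, 2.24, 2.78 and 3.17 in CD11b single positives. LGALS1, the lectin galectin-1, stood at 0.86, 0.20, 0.57 and 0.09 against 1.88, 1.52, 1.47, 1.34 and 3.25. Neither overlapped, and the differences were 1.49 ± 0.44 and 1.46 ± 0.55. The maturity marker B3GAT1, which makes the CD57 epitope, was the lower member (-0.82 ± 0.38), and the egress receptor S1PR5 differed by -0.18 ± 0.66. Within slide 1 the list's median was 1.03 and within slide 2 it was 0.26, beside 0.02 and -0.04 for all genes.

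**Figure D4:**
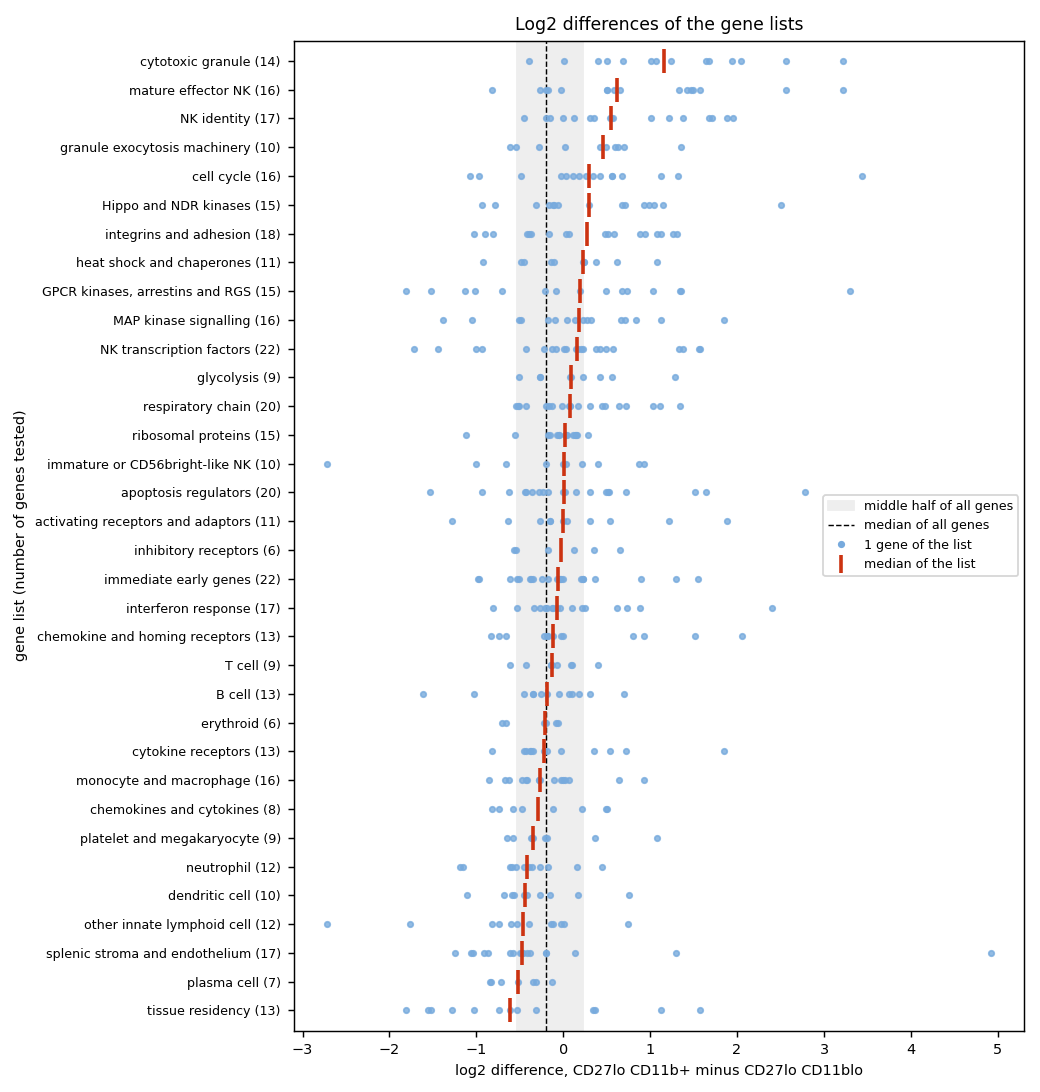
Log2 difference (horizontal axis, CD27lo CD11b+ minus CD27lo CD11blo) of each tested gene in 34 lists, with the list's median in red, the middle 50% of all genes in grey and the median of all genes dashed. Cytotoxic granule genes have the highest median (1.16) and tissue residency genes the lowest (-0.61).

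In stress and housekeeping lists no more than 1 gene each had an unadjusted p under 0.05, where 3.59% of all genes did. Beside -0.20 for all genes, the median was 0.08 for the respiratory chain, 0.02 for ribosomal proteins and 0.09 for glycolysis. It was 0.22 for heat shock proteins and chaperones, -0.07 for the interferon response and -0.06 for immediate early genes. USP18 and KLF6 were the only genes of these lists at an unadjusted p under 0.05, a count not above the share of all genes. USP18, a protease that restrains interferon signalling, stood between -3.97 and -3.43 on double-low arrays and between -2.60 and 0.47 on the others, without overlap (2.40 ± 0.92), while the other 16 interferon genes had no unadjusted p under 0.05. KLF6, an early-response factor, differed by 1.54 ± 0.64, with its lowest level of -1.39 on double-low replicate 4. In the separate list of cytokine receptors, TGFBR3, a co-receptor for transforming growth factor beta, differed by 1.84 ± 0.79. It alone of the 13 tested had an unadjusted p under 0.05, where 3.59% of all genes did.

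Of 16 tested cell-cycle genes 12 had a difference above 0, against 36.2% of all genes, with a median of 0.30 beside -0.20. Only CENPF had an unadjusted p under 0.05, where 3.59% of all genes did. This kinetochore protein was at -3.97, 0.01, -5.16 and -1.60 against -0.87, 1.98, 1.44, 0.04 and 1.19 (3.44 ± 1.26), whereas CDK1 differed by 1.12 ± 0.91 and UBE2C by -1.07 ± 0.77. Among 20 apoptosis regulators the median was 0.00. BBC3 (PUMA), which promotes cell death, differed by 2.78 ± 1.23 and the survival gene BCL2A1 by -1.53 ± 0.82.

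PDGFRB, the platelet-derived growth factor receptor beta that mesenchymal cells and pericytes carry, had the largest difference of the 20 genes of lowest p. It stood at -2.89, -4.61, -5.51 and -5.60 on double-low arrays, where 2 of 4 were well above background, and at -0.10, 1.91, -0.71, 2.12 and -1.85 on CD11b single-positive arrays. The groups did not overlap and the difference was 4.92 ± 1.23, from 4.46 to 5.51 when arrays were left out in turn. With normexp background correction it was 3.21. Of the other 16 tested genes of splenic stroma and endothelium 14 had a difference below 0 and 2 above 0, where 36.2% of all genes were above 0. The median of the 16 was -0.49, beside -0.20 for all genes and -0.39 for the 4064 dimmest genes. Those below 0 included the collagens COL1A1 (-0.47 ± 0.54) and COL3A1 (-0.91 ± 0.61) and the proteoglycan DCN (-0.20 ± 0.57). The source of the PDGFRB signal was not tested.

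Markers of other cell types lay near or below the median of all genes. Of the 110 tested genes in 10 such lists, 87 had a difference below 0 and 23 above 0, where 36.2% of all genes were above 0, and list medians ran from -0.52 (plasma cells) to -0.14 (T cells). At an unadjusted p under 0.05 stood 1 higher gene, PDGFRB, and 4 lower ones, beside 1.89% and 1.7% of all genes. The higher count was near its share of all genes, and the lower count was somewhat above its share. The lower genes were the B cell adaptor BANK1 (-1.61 ± 0.76), IL23R of other innate lymphoid cells (-1.76 ± 0.70), LCN2 of neutrophils (-1.19 ± 0.52) and the endothelial receptor TEK (-1.24 ± 0.55). The T cell chain CD3D was well above background on all 9 arrays and differed by -0.07 ± 0.78, and TRAT1 by -0.61 ± 0.62. Summed as linear scaled signal, the 9 T cell genes ran from 51.8 to 71.7 on double-low arrays and from 52.9 to 73.6 on CD11b single-positive arrays. The 13 B cell genes ran from 4.71 to 14.3 and from 4.94 to 8.27, and the 16 monocyte and macrophage genes from 11.6 to 13.8 and from 10.1 to 12.3. Because each gene has its own probe, these sums compare arrays within a list. They do not compare lists with each other and give no share of cells. The part of these cell types in the results was not tested.

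GTF2E1, PAFAH1B1 and ABHD1 complete the higher genes. GTF2E1 is a subunit of the general transcription factor TFIIE. It stood between -3.71 and -1.67 in double-low cells and between -1.66 and 1.05 in CD11b single positives (2.77 ± 0.66). Its second probe gave 3.12, with overlap between the groups. PAFAH1B1 (LIS1), a regulator of dynein, stood at -0.38, -1.54, -2.15 and -2.32 against -0.52, 0.94, -0.01, 2.16 and 3.77, overlapping through replicate 1 of each subset (2.87 ± 0.72). ABHD1, a hydrolase-family protein, stood between -4.31 and -2.31 in double-low cells and in a narrow range of -0.82 to -0.10 in CD11b single positives (2.52 ± 0.65).

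Probes that did not stand for their gene added 2 names. A probe of ZFAND1, a stress-granule factor, differed by 2.87 ± 0.55 with no overlap, and the brighter ZFAND1 probe by 1.85 ± 0.56. A probe of PNPT1, a mitochondrial RNA-degrading enzyme, differed by -2.77 ± 0.68, whereas the brighter PNPT1 probe gave -0.14 ± 0.49, so the probes of that gene disagreed. Of the 10 expressed probes with the lowest p in their direction, 5 were matched to no gene, among them the largest difference of the 10 (5.62 ± 1.08).

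The same step to CD11b could be set beside CD27+ cells, where 5 double-positive arrays were compared with 4 CD27 single-positive arrays. These 9 arrays are not among those of the CD27lo difference, but they share slides with it, and donor labels made here from origin, sex and age. They also share the centring of list values, the filter on dim probes and the pooled estimate of spread. Double-positive replicate 4 was the dimmest of the 20 arrays, with a 75th percentile of signal of 180.0 and 67.9% of probes well above background. Double-positive replicates 4 and 3 had the lowest array weights of the 18 NK arrays (0.26 and 0.36). Double-positive replicates 4 and 5 stood on slide 3, which held no CD27 single-positive array. In CD27+ cells PRF1 differed by 1.33 ± 0.44, GZMH by 1.95 ± 0.81, STK38 by 1.51 ± 0.60, SELPLG by 1.97 ± 0.53 and PDGFRB by 4.67 ± 1.23. PLEKHG3 differed by 3.65 ± 0.58, with the limma adjusted p of 0.0699 that was the lowest of that step; it passed with normexp background correction, with the filter on all arrays, and without any 1 of double-positive replicates 2 and 3 and CD11b single-positive replicate 5. No gene passed in CD27+ cells by limma, and 295 (2.42%) had an unadjusted p under 0.05, 110 of them higher (0.902%) and 185 lower (1.52%).

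Of the 10 higher genes named above, 9 also had a difference above 0 in CD27+ cells, and of the 10 lower genes 9 had one below 0; the exceptions were ABHD1 (-0.70 ± 0.65) and RBL1 (0.14 ± 0.37). Of the 231 genes higher at an unadjusted p under 0.05 in CD27lo cells 67.1% had a difference above 0 in CD27+ cells, where 43% of all genes did. Of the 207 lower genes 80.2% had a difference below 0, where 57% of all genes did. In both steps 25 genes were higher at an unadjusted p under 0.05, which is 10.8% of the CD27lo list and 22.7% of the CD27+ list. They include PRF1, GZMH, STK38, PLEKHG3, SELPLG, PDGFRB, S100A4, LGALS1 and CD7. Lower in both were 12 genes (5.8% and 6.49%). Across all genes, which are not independent replicates, the differences of the 2 steps correlated with r = 0.15.

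**Figure D5:**
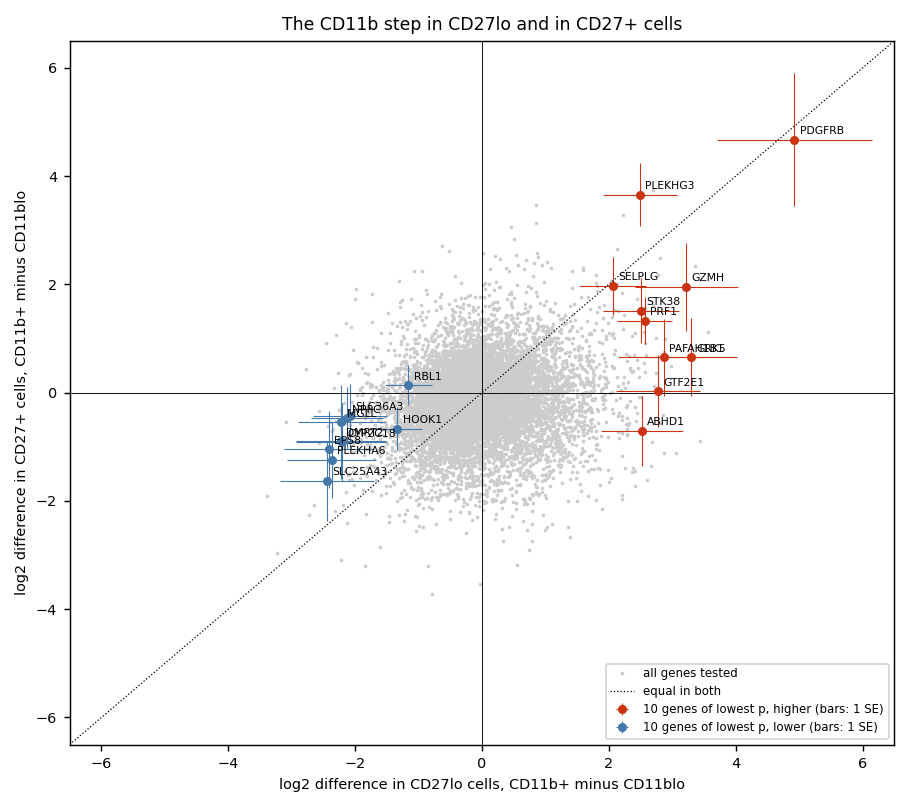
Log2 difference of the CD11b step in CD27+ cells (vertical axis) against that in CD27lo cells (horizontal axis) for 12192 genes in grey, with the 10 higher genes of lowest p in red, the 10 lower ones in blue and bars of 1 SE. PDGFRB and SELPLG lie on the dotted line of equal differences, and GTF2E1, GRK5, PAFAH1B1 and ABHD1 lie well below it.

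Whether the step differed with CD27 was tested as an interaction, and no gene passed (lowest limma adjusted p 0.9997), with 175 genes (1.44%) at an unadjusted p under 0.05. GRK5 differed by 3.30 in CD27lo cells and by 0.65 ± 0.72 in CD27+ cells, where CD27 single positives already stood at 1.61 (interaction 2.64 ± 1.02, limma adjusted p = 0.9997). GTF2E1 differed by 0.03 ± 0.66 in CD27+ cells (interaction 2.74 ± 0.94) and ABHD1 had the largest interaction of the 20 named genes (3.22 ± 0.92). For PRF1 the interaction was 1.23 ± 0.62, with an interval of -0.06 to 2.52, and mean levels were 0.97 in double-low cells, 2.03 in CD27 single positives, 3.36 in double positives and 3.54 in CD11b single positives. For SELPLG it was 0.08 ± 0.75, for PDGFRB 0.25 ± 1.73 and for GZMH 1.27 ± 1.15, intervals too wide to say that the steps were alike.

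The lists differed in how they stood in the other step. The median of cytotoxic granule genes was 0.37 in CD27+ cells, of NK identity genes 0.19, of mature effector genes 0.40 and of tissue residency genes -0.77. The median of all genes in CD27+ cells was -0.09. Of the 13 tissue residency genes 1 had a difference above 0 in CD27+ cells, where 43% of all genes did, and 4 had one in CD27lo cells. Their lower median was thus not particular to CD27lo cells. The genes of lowest p for the interaction included SLC44A4, ABHD1, CLCC1, POLR2D, NUS1, SLC17A5, PFDN4, LOC102137669 and ACTRT3. Among them NUS1, a subunit of an enzyme that makes the lipid carrier for protein glycosylation, differed by 2.60 ± 0.97 in CD27lo cells without overlap and by -1.61 ± 0.97 in CD27+ cells. The choline transporter-like gene SLC44A4 differed by -1.05 ± 0.37 and by 0.77 ± 0.37.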

How the data were processed

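The submitters' processing notes name Agilent Feature Extraction 10.7.1.1 and Partek. Per the file headers, the deposited processed signal is a background-subtracted intensity for every spot, scaled here by log2 and the 75th percentile of the array. The authors' deposited matrix holds log2 values and served as an alternative.

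Control spots and outlier flags were removed, leaving 58839 spots of 58659 probes. Of these probes 20417 (34.8%) matched 12530 genes of the RefSeq gene table (T2T-MFA8v1.1) by transcript accession. Probes detected well above background in 4 or more of the 18 NK arrays were fitted with limma 3.58.1 in R 4.3.3 (1 mean per subset, all 18 arrays, eBayes with trend and robust, no block), the probe of highest mean signal standing for its gene. The Benjamini-Hochberg threshold was 0.05 over all genes tested. The precision rests on the number of arrays. A list was described by its counts and median. Alternatives covered scaling, background, filters, probe choice, slide, pairing, array weights and leaving out arrays.

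Named were the 10 genes of lowest p in each direction (the interaction: 10 in all), PRF1, GRK5, STK38, CD27, up to 4 members of lowest p per list with defining markers of other cell types, and the genes of the 5 probes of lowest p in each direction; further list members were named after their values were seen, and some results that the rule took are not reported here. Members and lists (613 genes, 408 tested) were chosen with earlier results of these data known. Residuals of same-numbered double-low and CD11b single-positive arrays correlated with 0.32, 0.26, 0.13 and -0.14, and those of replicate 4 of the former and replicate 5 of the latter, which share origin, sex and age, with 0.23. The labels do not say whether arrays with like labels come from the same animal. Donor labels for pairing were made here from origin, sex and age, with replicate 3 of all NK subsets joined despite its differing ages.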

Additional observations from a re-analysis of the deposited data

Results flagged for a closer look

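In 6 of 130 groups of 4 or 5 arrays, 1 array stood far from the rest, and chance alone gives about 1 in 20. On double-low arrays, the immature NK list stood at -0.90 on replicate 4 against 0.26 on the next array. On replicate 3 the Hippo and NDR list stood at -0.58 against -0.09. On CD11b single-positive arrays, RBL1 stood at 0.78 on replicate 1 against -0.34, SLC44A4 at -0.013 on replicate 5 against -0.85, the chemokine and cytokine list at 0.26 on replicate 2 against -0.05, and the list of apoptosis regulators at -0.84 on replicate 5 against -0.09. List values are means of log2 levels centred on the NK arrays.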

How the results depend on the processing

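Under 15 alternatives the CD11b step in CD27lo cells kept a count of 0 genes past the limma threshold, except with array weights, where 1 gene, PRF1, passed (2.67, adjusted p = 0.0101). Left out in turn, each NK array also gave 0, with 243 to 705 genes at an unadjusted p under 0.05; without CD11b single-positive replicate 1 the adjusted p of PRF1 was 0.0511. With the replicate block by number the count was 0 (436 genes at an unadjusted p under 0.05, PRF1 2.43, adjusted p = 0.643), and pairing by donor label gave 0 as well (517 genes, PRF1 2.42, adjusted p = 0.469). The slide as a block gave 0 and 244 genes. In the CD27+ step 1 gene, PLEKHG3, passed with normexp background correction and with the filter on all arrays, and the count ran from 0 to 1 when arrays were left out. CD27 changed sign with quantile normalization (0.011), the deposited matrix (0.00811), array weights (0.23), within slide 1 (0.34) and without double-low replicate 4 (0.44) or CD11b single-positive replicate 2 (0.06), ranging from -0.42 to 0.44 when arrays were left out; the cause was not tested. Of the other gene-level values 988 kept their direction and side of the threshold, and of list medians 25 of 1155 moved by more than the spread between arrays.

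Slide 3 held CD11b single-positive arrays but no double-low array, so slide and subset can be separated only on slides 1 and 2, with 2 against 2 and 1 against 2 arrays. The lower genes were mostly dim.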
